A study of Mus musculus with 12 samples.

Results

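The peaks described here are the places where the zinc finger protein ZBTB43 captured naked mouse DNA inside gene deserts. A peak counted as a desert peak where its midpoint lay 500 kb or more from the nearest protein-coding gene of GENCODE M21 on the mouse autosomes (mm10). By that rule 10248 of the 169284 autosomal peaks of the methylated lung DNA (6.05%) and 600 of the 14554 autosomal peaks of the unmethylated DNA (4.12%) were desert peaks. They were set against the 73246 and 6457 peaks whose midpoint lay inside a protein-coding gene.

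The peaks came from in vitro affinity sequencing, in which MBP-tagged full-length ZBTB43 held on beads was mixed with sonicated genomic DNA and the bound fragments were sequenced, with the MBP tag alone as background. The SssI DNA was lung DNA of wild type male adult C57BL/6N mice, 2 months old, whose CpGs were methylated with the bacterial enzyme M.SssI after fragmentation. The TKO DNA came from 1 clone of male ES cells of the genotype Dnmt1-/-Dnmt3a-/-Dnmt3b-/- (age given as 3.5 dpc), which lack all of these DNA methyltransferases and therefore carry unmethylated DNA. Each DNA had 2 libraries with MBP-ZBTB43 and 2 with MBP, and these 8 of the 12 libraries were pooled by the authors into 1 peak list for each DNA. The 4 libraries of sperm DNA were not analysed here. The source of the DNA and its methylation cannot be told apart, and with 1 list for each DNA no test between them was made. The DNA was purified, so neither chromatin nor transcription was present in the capture.

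Gene deserts are long stretches of a chromosome without protein-coding genes. They are AT-rich and poor in CpG, and many flank genes for cell adhesion proteins and developmental regulators, whose distant enhancers some of them hold. ZBTB43 binds purine-pyrimidine repeats (PPRs), in which purines and pyrimidines alternate along a strand. Repeats of CA on one strand and TG on the other are the most common form in mammals, and such repeats can flip from the usual right-handed helix into left-handed Z-DNA.

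A stretch of alternating purines and pyrimidines of 12 bp or more with at least one G or C is called a tract here, and the sequence was that of GRCm38 (mm10). To show what ZBTB43 captured so far from genes, the strongest desert peaks, the widest and the most remote ones are printed below, each as up to 140 bp on the plus strand around the longest tract or, without a tract, around the midpoint of the peak. Tracts are in capitals, and rank is by score among the desert peaks of a list.
SssI desert rank 1, chr19:49391101-49391240 (between Sorcs3 and Sorcs1): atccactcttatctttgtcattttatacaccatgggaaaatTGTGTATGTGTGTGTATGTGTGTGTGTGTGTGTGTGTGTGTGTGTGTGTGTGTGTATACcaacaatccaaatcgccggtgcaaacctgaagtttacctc
SssI desert rank 2, chr15:24604202-24604341 (between Cdh18 and Basp1): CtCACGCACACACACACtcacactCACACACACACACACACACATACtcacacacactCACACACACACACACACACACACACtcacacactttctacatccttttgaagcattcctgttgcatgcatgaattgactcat
SssI desert rank 3, chr14:90313473-90313612 (between Pcdh20 and Pcdh9): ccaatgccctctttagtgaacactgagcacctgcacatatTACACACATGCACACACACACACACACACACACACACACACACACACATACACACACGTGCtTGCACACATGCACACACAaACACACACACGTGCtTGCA
TKO desert rank 1, chr3:147582853-147582992 (between Ttll7 and Adgrl2): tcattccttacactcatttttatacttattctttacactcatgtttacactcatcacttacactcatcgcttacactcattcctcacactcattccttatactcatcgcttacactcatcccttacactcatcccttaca
TKO desert rank 2, chr3:110933507-110933646 (between Prmt6 and Amy2a5): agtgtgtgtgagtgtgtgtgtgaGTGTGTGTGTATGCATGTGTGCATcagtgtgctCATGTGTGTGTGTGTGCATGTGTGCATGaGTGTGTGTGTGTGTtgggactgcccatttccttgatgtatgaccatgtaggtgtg
TKO desert rank 3, chr7:72864930-72865069 (between Mctp2 and Rgma): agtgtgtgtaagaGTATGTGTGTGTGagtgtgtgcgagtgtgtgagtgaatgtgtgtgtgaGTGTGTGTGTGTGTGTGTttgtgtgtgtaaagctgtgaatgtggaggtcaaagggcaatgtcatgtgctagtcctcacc
Widest in both lists, chr10:113640303-113640442 (between Atxn7l3b and Trhde): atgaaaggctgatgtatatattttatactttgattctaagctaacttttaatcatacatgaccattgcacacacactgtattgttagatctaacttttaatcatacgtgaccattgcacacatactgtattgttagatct
SssI most remote, chr8:51174233-51174372 (between Tenm3 and Aga): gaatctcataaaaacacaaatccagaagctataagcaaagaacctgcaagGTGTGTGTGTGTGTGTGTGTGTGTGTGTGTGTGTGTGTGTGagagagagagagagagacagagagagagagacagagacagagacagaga
TKO most remote, chr8:51298539-51298678 (between Tenm3 and Aga): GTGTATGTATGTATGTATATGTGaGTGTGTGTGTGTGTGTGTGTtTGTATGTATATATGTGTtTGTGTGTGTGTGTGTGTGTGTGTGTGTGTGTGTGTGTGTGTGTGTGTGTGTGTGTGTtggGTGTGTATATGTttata

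Most of these sequences were runs of TG or CA, and the strongest ones were not always the longest or purest. The strongest SssI desert peak had a score of 2344, the sixth highest of all autosomal SssI peaks, and held a tract of 59 bp within 782 bp. The TKO peak that overlapped it (score 1309) lay at chr19:49391404-49391721, outside the stretch printed and thus away from that tract. Scores are the authors' and equal 10 times the −log10 q-value, and they rank peaks only within their own list. The next SssI peak (score 2268) had CA runs broken by single bases, the longest of 25 bp, and the one after it (score 2238) a CA tract of 61 bp.

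The 3 strongest TKO desert peaks held short tracts or none. The strongest (chr3:147582681-147583165, score 2562) had no alternating run of even 10 bp over 485 bp, and the printed stretch is a string of short units, most of which hold ACACTC. The next were TG-rich stretches in which runs were interrupted by the letters GAGTGT, the reverse complement of ACACTC, with longest tracts of 28 bp (score 2557) and 18 bp (score 2539). The widest desert peak, of 1501 bp in the SssI list and 1453 bp in the TKO list, was a tandem repeat of an AT-rich unit with GCACAC in it, a GC content of 32.7% (SssI peak) and no run over 11 bp. All of the peaks printed overlapped a peak of the other list, with the exception of the most remote SssI peak.

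The most remote peaks lay in one desert on chromosome 8 between Tenm3, which encodes a teneurin of synaptic adhesion, and Aga, a lysosomal enzyme gene. The SssI peak at chr8:51174226-51174378 was 2330 kb from Tenm3, the nearest protein-coding gene, with a TG tract of 41 bp, no CpG and a score of 73. The TKO peak at chr8:51298485-51298678 was 2213 kb from Aga, with 5 tracts in the printed stretch, a longest tract of 57 bp and a score of 41. The SssI peak over the latter had a score of 723. The median distance of desert peaks from a gene was 765.2 kb for the SssI list and 718.5 kb for the TKO list.

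The limit of 500 kb cut through a continuous range. The nearest SssI peaks on either side of it were 499934 and 500053 bp from a gene, and the nearest TKO peaks 498751 and 500050 bp. Between 450 and 500 kb lay 1550 SssI and 105 TKO peaks, and between 500 and 550 kb lay 1321 and 96.

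Desert sequence under the rule came to 202.0 Mb without unknown bases, 8.43% of the autosomes, in 251 deserts with a median of 503400 bases. Its GC content was 37.5%, against 43.1% inside protein-coding genes, it had 5.04 CpGs per kb against 10.0, and 42.35% of it was masked as repeats against 27.0%. A desert of this kind is free of protein-coding genes only. Long non-coding RNA genes, small RNA genes and pseudogenes covered 6.89% of the desert sequence, and 7.56% of the SssI desert peaks and 6.50% of the TKO desert peaks lay under one. Immunoglobulin and T cell receptor gene segments, which GENCODE does not class as protein-coding, lay in 3 deserts with 4.47 Mb, 158 SssI peaks (1.54%) and 8 TKO peaks (1.33%).

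Both lists were sparser in deserts than inside genes. The SssI list held 50.7 peaks per Mb of desert (95% interval 49.75 to 51.7) and 73.95 per Mb inside genes (73.4 to 74.5), a ratio of 0.686 (0.672 to 0.7002). The TKO list held 2.97 per Mb of desert (2.74 to 3.22) and 6.52 inside genes (6.36 to 6.68), a ratio of 0.4555 (0.419 to 0.495). Over all autosomes the densities were 70.7 and 6.075 per Mb. The intervals are exact Poisson intervals for densities and normal intervals on the log scale for ratios, they cover the counting of peaks only, and no replicate spread stands behind them. With a desert defined by 500 kb from any annotated gene, 0.603 Mb with 40 SssI and 2 TKO peaks were left, and the intervals of the ratios included 1 (0.897, 0.658 to 1.223 and 0.509, 0.127 to 2.035).

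The density changed little up to 100 kb from a gene and then fell with distance in both lists. SssI peaks numbered 74.97 per Mb up to 100 kb, 68.0 from 100 to 250 kb, 61.8 from 250 to 500 kb, 52.7 from 500 kb to 1 Mb and 46.5 beyond 1 Mb. TKO peaks numbered 7.01, 5.64, 4.10, 3.30 and 2.26 per Mb in the same classes. The share of SssI peaks with a TKO counterpart fell along the same classes, from 9.21% up to 100 kb to 6.19% from 500 kb to 1 Mb and 4.87% beyond 1 Mb, and the median TKO score fell from 203 to 153 and 114. The 95% intervals of neighbouring density classes did not overlap from 100 kb outward in either list. The supply of long PPRs changed far less, since tracts of 36 bp or more numbered 105 per Mb inside genes, 100.2 from 500 kb to 1 Mb and 93.8 beyond 1 Mb. Over all deserts they were at 0.937 of their density inside genes. Shorter tracts were rarer in deserts, at 0.8625 of the gene density for 24 bp or more and 0.819 for 12 bp or more. The GC content fell along the same classes, from 43.1% inside genes to 36.9% beyond 1 Mb.

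**Figure D1:**
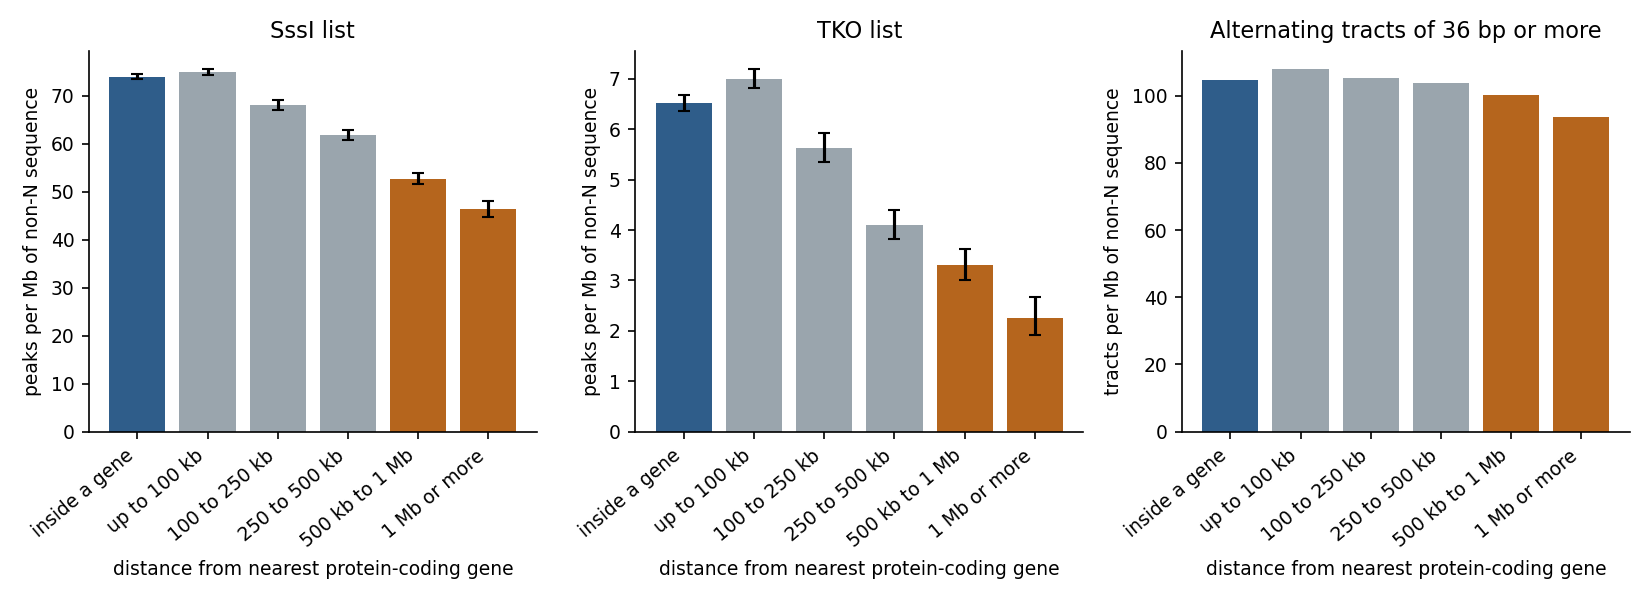
Peaks per Mb of the SssI list (left) and of the TKO list (middle), with exact 95% Poisson intervals as bars, and tracts of 36 bp or more per Mb (right), in classes of distance from the nearest protein-coding gene. Blue is inside genes, grey is up to 500 kb and brown is desert. Peaks fall from 73.95 to 46.5 per Mb (SssI) and from 6.52 to 2.26 per Mb (TKO) between genes and the most distant class, while long tracts go from 105 to 93.8 per Mb.

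The deficit was spread over the chromosomes. The SssI density was lower in deserts than inside genes on 19 of 19 autosomes, with ratios from 0.590 on chromosome 10 to 0.8655 on chromosome 19. The TKO density was lower on 18 of 19, with a median ratio of 0.417. The exception was chromosome 19, where 13 TKO peaks in 1.51 Mb of desert gave 8.61 per Mb (4.58 to 14.7), against 6.33 inside genes. That interval covers the gene value.

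**Figure D2:**
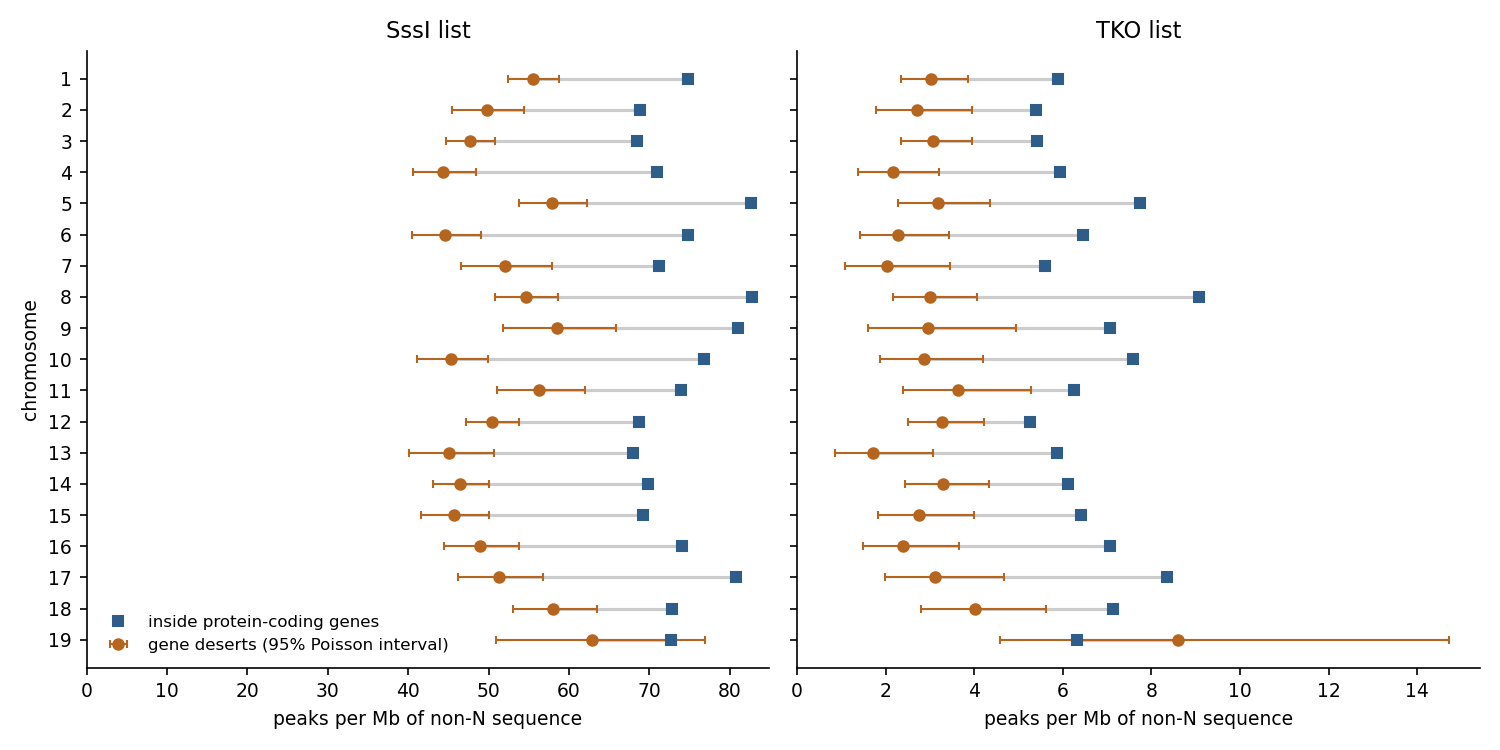
Peaks per Mb in gene deserts (brown circles, bars are exact 95% Poisson intervals) and inside protein-coding genes (blue squares) on each autosome, for the SssI list (left) and the TKO list (right). The brown circles lie to the left of the blue squares on 19 chromosomes for the SssI list and on 18 for the TKO list, the exception being chromosome 19.

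Single deserts of 1 Mb or more differed beyond counting error in the SssI list, and little beyond it in the TKO list. The variance of their counts was 4.92 times (SssI) and 1.30 times (TKO) that of counting error at an even density. Among the 71 deserts of 1 Mb or more, which hold 135.1 Mb, the SssI density ran from 23.8 to 76.7 per Mb with a median of 45.6, and 70 of them were below the density inside genes. The TKO density ran from 0 to 6.14 per Mb with a median of 2.33, below that inside genes in all 71. Deserts under 1 Mb ranged more widely, from 0 to 177.5 SssI peaks per Mb, and some lay above the density inside genes in both lists. The highest SssI value came from 73 peaks in 0.411 Mb on chromosome 12, with 14 TKO peaks (34.05 per Mb). Neighbouring desert peaks were a median of 11770 bp apart in the SssI list and 137000 bp in the TKO list. Of all 251 deserts, 11 had no SssI peak, the longest of them 91041 bases, and 71 had no TKO peak.

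The 5 longest deserts had between 44.0 and 69.5 SssI peaks per Mb. The longest, of 3.67 Mb between Tenm3 and Aga, held 194 SssI peaks (52.9 per Mb) and 10 TKO peaks (2.73 per Mb). The desert between Pcdh20 and Pcdh9, protocadherin genes of cell adhesion on chromosome 14, held 156 SssI peaks (44.0 per Mb) and 12 TKO peaks. The desert between Celf4, an RNA-binding protein gene, and Pik3c3, a lipid kinase gene, held 202 (57.4 per Mb) and 7. The desert between Olfm4 and Pcdh17 held 151 (44.15 per Mb, interval 37.4 to 51.8) and 6. The desert between Cntnap5b and Cdh20, both adhesion protein genes on chromosome 1, held 228 (69.5 per Mb, 60.7 to 79.1) and 10, so that its SssI density lay above the intervals of the protocadherin deserts.

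The densest desert of 1 Mb or more was the 1.45 Mb between Adgrl2 and Adgrl4, genes of adhesion G protein-coupled receptors on chromosome 3, with 111 SssI peaks (76.7 per Mb, 63.1 to 92.4) and 8 TKO peaks (5.53 per Mb). Next in order were Cntnap5b to Cdh20 and the desert between Tmprss15 and Ncam2 on chromosome 16 (76 SssI peaks, 68.5 per Mb, 54.0 to 85.7). Their intervals overlap, so their order is not settled.

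Among the 3 sparsest were the desert between Cox7c and Edil3 on chromosome 13 (48 SssI peaks, 27.05 per Mb, 19.9 to 35.9) and that between Snrpn and Ndn, imprinted genes on chromosome 7 (34 SssI peaks, 28.2 per Mb, 19.5 to 39.4), whose intervals overlap.

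Across the 71 deserts of 1 Mb or more the SssI density went with the supply of tracts, and most of these deserts differed little in mean GC content. Spearman's rho was 0.824 with tracts of 24 bp or more per Mb, −0.706 with the masked share and 0.098 with GC content. For the TKO list the values were 0.454, −0.258 and 0.088, with few peaks in each desert. The points share the 2 lists and differ in length, and the values are a description without a test. In this set of deserts GC content ran only from 35.8% to 44.9%, with a median of 36.9%. The highest value was that of a single desert, and the next highest was 39.0%. Shorter deserts, some of them richer in GC and in peaks, were left out, and the part of GC content was not tested.

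**Figure D3:**
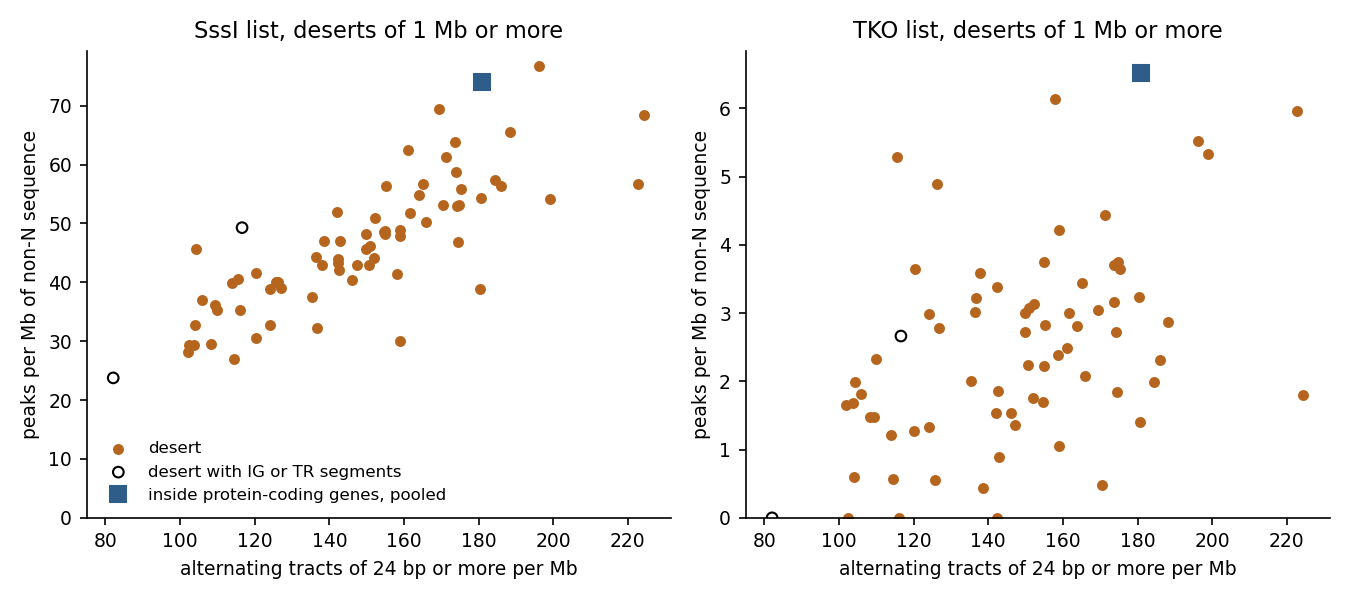
Peaks per Mb against tracts of 24 bp or more per Mb in each of the 71 deserts of 1 Mb or more (brown points), for the SssI list (left) and the TKO list (right). Open circles are deserts with immunoglobulin or T cell receptor segments, and the blue square is all sequence inside protein-coding genes. SssI points climb with tract density, and 70 of 71 lie below the blue square at 73.95 per Mb.

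Nearly all desert peaks held a tract. Among SssI desert peaks 10179 of 10248 did (99.3%, Wilson 95% interval 99.15 to 99.5), beside 98.6% of all autosomal SssI peaks and 98.4% (98.3 to 98.5) of those inside genes. Among TKO desert peaks 591 of 600 did (98.5%, 97.2 to 99.2), beside 96.5% of all autosomal TKO peaks and 95.35% (94.8 to 95.8) inside genes. These intervals do not overlap between deserts and genes, although the gap is small in the SssI list. It was wider at 36 bp, and narrower again for the longest tracts. Tracts of 36 bp or more were in 80.1% of SssI desert peaks (79.3 to 80.8) and 74.0% of SssI peaks inside genes (73.7 to 74.3), and in 83.3% of TKO desert peaks (80.1 to 86.1) and 66.7% of TKO peaks inside genes (65.6 to 67.9). Tracts of 60 bp or more were in 18.5% of SssI desert peaks (17.75 to 19.25) and 15.8% inside genes (15.5 to 16.03), and in 39.8% of TKO desert peaks (35.99 to 43.8) and 31.0% inside genes (29.9 to 32.2). Shares with a tract of 100 bp or more had overlapping intervals, at 1.78% and 1.88% in the SssI list and 13.2% and 12.45% in the TKO list.

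Tracts also sat near the centre of desert peaks. Among peaks with a tract, distance was taken from the middle of the longest run (10 bp or more) to the midpoint of the peak. Its median was 15.5 bp in the SssI list and 30.5 bp in the TKO list, against 16.5 and 37 bp inside genes. Narrower peaks leave less room for this distance, and desert peaks were narrower. Their median widths were 189 against 197 bp (SssI) and 221 against 255 bp (TKO). The median length of the longest run was 47 bp in SssI desert peaks and 52 bp in TKO desert peaks, against 45 bp inside genes in both lists.

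The make-up of the repeats differed between deserts and genes. A CA repeat of 12 bp, on either strand, was in 96.7% of SssI desert peaks (96.4 to 97.1) against 93.3% inside genes (93.1 to 93.5), and in 94.3% of TKO desert peaks (92.2 to 95.9) against 86.1% (85.2 to 86.9). Over all autosomal peaks the shares were 93.9% (SssI) and 87.85% (TKO). PPRs with CpG were scarcer, as they were in the sequence itself. Of all tracts of 36 bp or more, 18.1% held a CpG in deserts and 30.1% inside genes. Over all autosomal SssI and TKO peaks, the longest tract held a CpG in 28.8% and 37.7%. A CG repeat of 12 bp was in 1.34% and 1.395% of them, and a CACG repeat of 16 bp in 0.762% and 1.87%. The longest tract held a CpG in 22.0% of SssI desert peaks (21.2 to 22.8) and 30.85% inside genes (30.5 to 31.2), and in 36% of TKO desert peaks (32.3 to 39.9) and 39.4% inside genes (38.2 to 40.6), intervals that overlap. A CG repeat of 12 bp was in 75 SssI desert peaks, 0.732% (0.584 to 0.916) against 1.49% inside genes (1.40 to 1.58). A CACG repeat of 16 bp was in 42 of them, 0.410% (0.303 to 0.554) against 0.902% (0.837 to 0.974). In the TKO list the CACG repeat was in 9 desert peaks, 1.5% (0.791 to 2.83) against 2.15% inside genes (1.83 to 2.54), intervals that overlap. A TA repeat of 12 bp was more frequent in SssI desert peaks, at 1.70% (1.465 to 1.97) against 0.7495% inside genes (0.690 to 0.815). Over all autosomal peaks it was in 0.896% (SssI) and 0.543% (TKO). In the TKO list it was in 3 desert peaks, 0.5% (0.170 to 1.46) against 0.434% inside genes (0.300 to 0.626), intervals that overlap.

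CG repeats were in 5 TKO desert peaks, 0.833% (0.3565 to 1.94) against 1.56% inside genes (1.29 to 1.90), intervals that overlap. These peaks were picked out after their values were seen. They lay at chr2:46063878-46064067 (score 164), chr2:56529012-56529462 (773), chr6:75006334-75006612 (410), chr15:24479039-24479252 (123) and chr17:77672091-77672301 (71). Each overlapped an SssI peak, with scores from 530 to 1428.

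Desert peaks were poor in CpG altogether, as was desert sequence as a whole, with 5.04 CpGs per kb against 10.0 inside genes. No CpG at all was in 46.0% of SssI desert peaks (45 to 46.9) against 28.15% inside genes (27.8 to 28.5), and in 33.7% of TKO desert peaks (30.0 to 37.5) against 22.8% (21.8 to 23.8). Peaks with 6 or more CpGs made up 3.78% against 10.2% in the SssI list and 12.3% against 21.25% in the TKO list. CpGs were counted on the reference, so a CpG lost in the DNA used here was not seen. The GC content of the peaks themselves was 41.1% against 45% for the SssI list and 43.6% against 45.8% for the TKO list (medians).

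Desert peaks were narrower and had lower scores, most clearly in the TKO list. The median width was 189 bp in SssI desert peaks and 197 bp inside genes, and 221 and 255 bp in the TKO list. The median score was 104 against 108 in the SssI list and 147 against 203 in the TKO list. Within classes of CpG number the SssI order was the other way. The medians were 86 in deserts and 80 inside genes without a CpG, and 109 and 97 with 1 to 2. They were 193.5 and 150 with 3 to 5 CpGs, and 332 and 315 with 6 or more. The strongest 10% of all autosomal SssI peaks by score held 7.40% of the desert peaks (6.91 to 7.92) and 10.1% of the peaks inside genes (9.91 to 10.3). For the TKO list the strongest 10% held 4.500% (3.11 to 6.47) and 10.4% (9.72 to 11.2).

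Within the deserts, groups of higher score had longer tracts throughout the SssI list, but only up to the fourth of 5 groups in the TKO list, and the strongest group had the most CpGs in both. With the SssI desert peaks put into 5 equal groups by score, from the weakest to the strongest group the median longest run went from 41 to 54 bp and the mean number of CpGs from 0.770 to 2.27. In the TKO list the median run was 50 bp in the weakest group, 60 bp in the fourth and 52.5 bp in the strongest, and the mean number of CpGs went from 1.57 to 4.11. Wider peaks have room for more of both, and median widths went from 141 to 268 bp and from 170 to 377.5 bp along the same groups. SssI desert peaks with a CpG had a median score of 126 and those without one of 86. TKO desert peaks, whose DNA carries no CpG methylation, had 172 with a CpG and 114 without.

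Desert peaks without a tract were mostly weak in the SssI list and mostly strong in the TKO list. The 69 such SssI peaks had a median score of 63, below the 104 of all SssI desert peaks, with a range from 17 to 1946. The 9 such TKO peaks had a median score of 498, above the 147 of all TKO desert peaks, with a range from 76 to 2562, and 5 of them were in the strongest of the 5 groups. An SssI peak overlapped 8 of the 9.

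The letters ACACTC and GCACAC, which recur in the printed sequences without a tract, were counted in the 200 bp around each midpoint, on both strands. They were chosen after those sequences were seen, they can overlap each other, and GCACAC also fits inside a CA repeat. At least one of them was in 7 of the 9 TKO desert peaks without a tract and in 29 of the 69 such SssI peaks (42.0%). For desert peaks with a tract the shares were 81.05% (TKO) and 53.0% (SssI). Of all 1010056 windows of 200 bp that tile the deserts, 13.7% held one, 8.04% for ACACTC and 6.67% for GCACAC. A match is a description of the letters and not a binding site.

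Nearly every TKO desert peak had an SssI counterpart, and few SssI desert peaks had a TKO counterpart. Of the TKO desert peaks 597 of 600 overlapped an SssI peak by at least 1 bp (99.5%, 98.5 to 99.8), beside 99.4% of all autosomal TKO peaks and 99.5% inside genes (99.3 to 99.6). The 3 without one, singled out after their values were seen, were chr1:124548278-124548470 (score 121), chr3:140547723-140547878 (score 81, without a tract) and chr3:148262466-148262621 (score 59). Among the other TKO desert peaks the scores in the lists had a Spearman's rho of 0.5725 over 597 pairs, which share their sequence.

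Of the SssI desert peaks 595 of 10248 overlapped a TKO peak (5.81%, 5.37 to 6.28), beside 8.47% of all autosomal SssI peaks and 8.68% inside genes (8.48 to 8.88). The intervals of deserts and genes do not overlap. Put as a ratio of counts, the deserts held 17.1 SssI peaks for each TKO peak and the genes 11.3. The lists were made from separate libraries and hold no read counts, so this ratio has no scale of its own outside the comparison of deserts with genes.

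The desert peaks found in both DNAs were the strong ones. Shared SssI desert peaks had a median score of 1082, a median width of 366 bp and a mean of 3.12 CpGs, against 96, 186 bp and 1.10 for the 9653 not shared. With the SssI list put into 10 equal groups by score, in the strongest group 467 of 758 desert peaks were shared (61.6%, 58.1 to 65.0), against 70.8% inside genes (69.8 to 71.8). In the second group the shares were 9.93% (8.22 to 11.95) and 11.0% (10.3 to 11.7), and in the third 1.31% (0.793 to 2.145) and 2.23% (1.92 to 2.60). From the fourth group down, shares were under 1% in both. Desert peaks weighted to the score groups of the peaks inside genes came to 7.49% shared, closer to the 8.68% inside genes than the 5.81% observed.

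Read by CpG content the shares of deserts and genes lay close together. SssI peaks without CpG were shared in 2.59% of cases in deserts (2.17 to 3.08) and 2.89% inside genes (2.67 to 3.12). With 1 to 2 CpGs the shares were 5.27% (4.63 to 5.99) and 5.77% (5.52 to 6.04), with 3 to 5 CpGs 14.7% (12.65 to 17.01) and 13.75% (13.2 to 14.3), and with 6 or more 27.4% (23.2 to 32.0) and 27.05% (26.05 to 28.1). The intervals overlap in each class, so that the gap of 5.81% to 8.68% was not seen within classes of CpG number. The TKO DNA has no CpG methylation, and CpG number here moves with width and score.

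**Figure D4:**
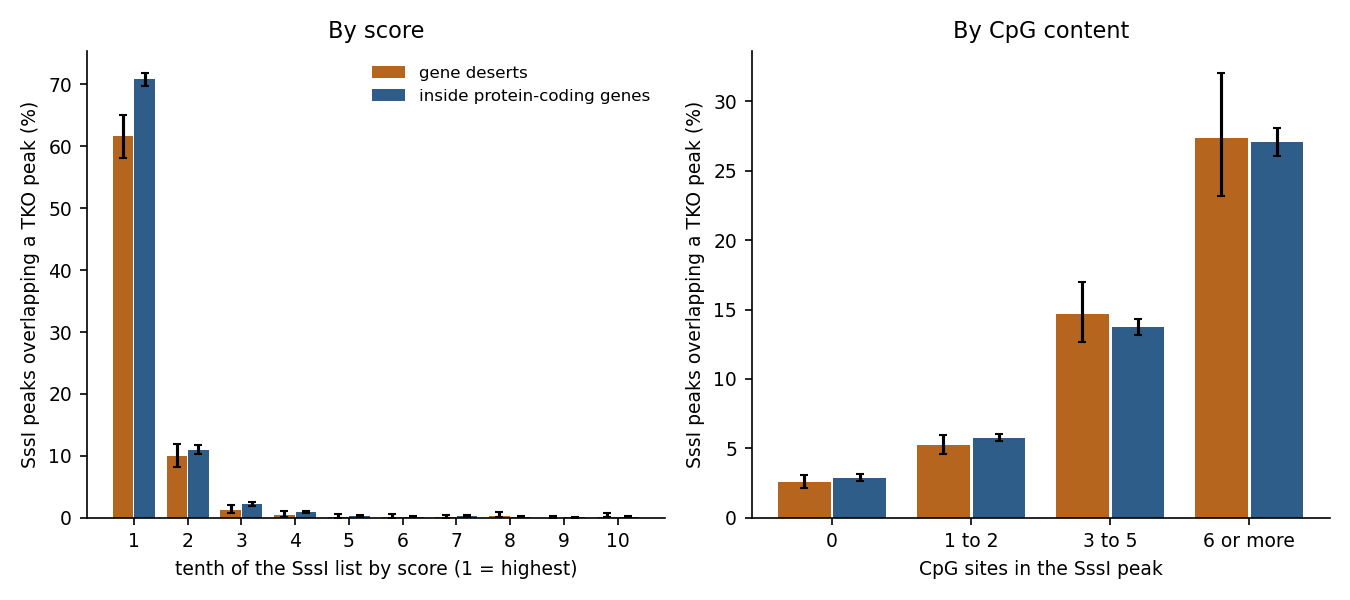
Share of SssI peaks that overlap a TKO peak in gene deserts (brown) and inside protein-coding genes (blue), by position in the SssI list (left, 10 equal groups by score, 1 is the strongest) and by the number of CpGs in the peak (right), with Wilson 95% intervals. In the strongest group 61.6% of desert and 70.8% of gene peaks are shared, and by CpG number the bars of deserts and genes have overlapping intervals.

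The deserts held 112724 tracts of 12 bp or more, and the last comparison asked what share of them lay under a peak. It was 19.0% for the SssI list and 2.36% for the TKO list, against 26.7% and 4.93% of the 675104 tracts inside genes. Neighbouring tracts share peaks, so counting intervals on tracts are too narrow. For tracts of 36 bp or more the shares were 45.8% (45.1 to 46.45) against 58.8% (58.5 to 59.1) for the SssI list, and 3.98% (3.71 to 4.26) against 6.57% (6.42 to 6.72) for the TKO list. Tracts of 60 bp or more with a CpG in them were the class most often under a peak. Their SssI shares were 70.97% in deserts (68.4 to 73.45) and 81.0% inside genes (80.2 to 81.8). Their TKO shares were 14.3% (12.45 to 16.4) and 18.3% (17.5 to 19.2). Without a CpG such long tracts were under an SssI peak in 32.7% of cases in deserts and 44.8% inside genes. Both were below the shares of tracts of 36 to 59 bp without a CpG, 45.3% in deserts and 57.5% inside genes. Length alone thus did not order the tracts in either region. In all of the classes of length and CpG a desert tract was less often under a TKO peak than a gene tract, and the same held for the SssI list with the exception of tracts of 16 to 23 bp with a CpG (22.98% in deserts and 21.4% inside genes).

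The share under a peak went with the base composition around the tract. The GC content of the 250 bp on either side of a tract of 36 bp or more was under 35% for 46.6% of desert tracts and for 13.4% of tracts inside genes. In that class 30.4% of desert tracts (29.5 to 31.4) and 28.3% of gene tracts (27.5 to 29.0) were under an SssI peak. From 35 to 40% GC the shares were 54.5% (53.3 to 55.7) and 50.0% (49.4 to 50.7), and from 40 to 45% they were 67.25% (65.6 to 68.9) and 63.5% (63.0 to 64.0). At 45% or more, which held 3.58% of the long desert tracts, they were 68.1% (64.6 to 71.4) and 74.6% (74.1 to 75.05). Desert tracts were thus under an SssI peak somewhat more often than gene tracts in the classes under 45% GC, and less often above. The lists hold no read counts, so GC bias of the libraries or the reads could not be checked. Nor could it be checked how well reads align in masked sequence.

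In the TKO list the shares also climbed with GC content, at a lower level, and the intervals of deserts and genes overlapped in every class. The shares of long desert tracts under a TKO peak were 1.395% (1.175 to 1.655), 4.63% (4.16 to 5.16), 8.54% (7.61 to 9.58) and 11.4% (9.26 to 13.9) from the lowest to the highest class of GC content. Inside genes they were 1.28% (1.11 to 1.49), 4.00% (3.77 to 4.25), 7.44% (7.16 to 7.72) and 10.1% (9.75 to 10.4).

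**Figure D5:**
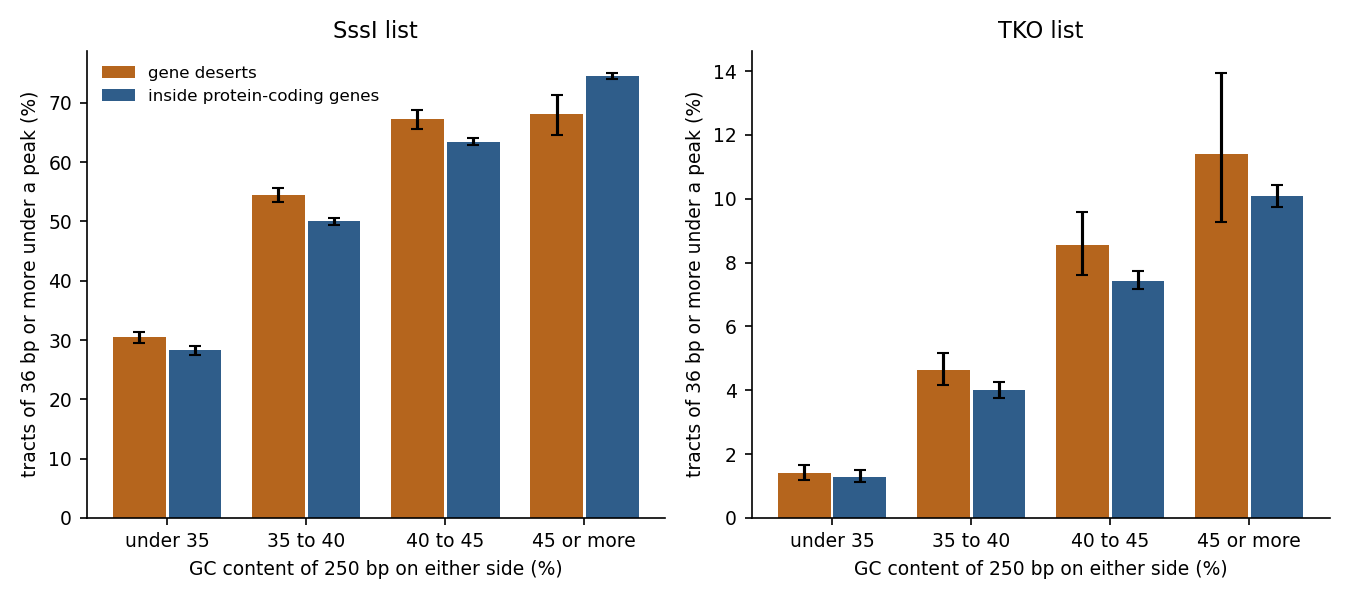
Share of tracts of 36 bp or more that lie under a peak, in gene deserts (brown) and inside protein-coding genes (blue), by the GC content of the 250 bp on either side, for the SssI list (left) and the TKO list (right), with Wilson 95% intervals. The shares climb with GC content in both regions, from 30.4% to 68.1% of desert tracts for the SssI list and from 1.395% to 11.4% for the TKO list.

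Carrying the gene shares over to the desert tracts gives the same picture for tracts of all lengths. At the gene shares for each length class, 27.25% of the desert tracts would lie under an SssI peak and 4.95% under a TKO peak, against the observed 19.0% and 2.36%, ratios of 0.697 and 0.478. With the presence of a CpG in the tract as well, the ratios were 0.694 and 0.475. At the gene shares for each class of length and flanking GC content, 17.7% and 2.335% would lie under a peak, ratios of 1.07 and 1.01. With CpG in the tract and CpGs and masking in the flanks added to length and GC content, the ratios were 1.04 and 0.888. These are carried-over shares and no test of a cause.

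In the SssI list the gap between deserts and genes was present in each class of masking and of CpG number in the flanks. By masking of the flanks, the SssI shares of long tracts were 52.4% (49.3 to 55.4) and 62.0% (61.05 to 62.97) under 10% masked, 45.3% (44.5 to 46.1) and 57.7% (57.3 to 58.0) from 10 to 50%, and 45.6% (44.05 to 47.2) and 61.5% (60.8 to 62.1) at 50% or more, for deserts and genes in that order. By the number of CpGs in the flanks, they were 41.6% (40.05 to 43.1) and 47.6% (46.5 to 48.7) without a CpG and 60.9% (57.5 to 64.3) and 69.0% (68.4 to 69.6) with 6 or more. In the TKO list long tracts with flanks at 50% or more masked were under a peak in 9.38% of cases in deserts (8.49 to 10.4) and 16.1% inside genes (15.6 to 16.7). From 10 to 50% masked the TKO shares were 2.83% (2.58 to 3.11) and 4.57% (4.42 to 4.72). Under 10% masked they were 1.08% (0.604 to 1.92) and 1.815% (1.57 to 2.10), intervals that overlap. By the number of CpGs in the flanks the TKO shares were 3.12% (2.625 to 3.705) and 5.48% (5.004 to 6.005) without a CpG. They were 3.38% (3.047 to 3.746) and 5.38% (5.145 to 5.627) with 1 to 2, and 4.82% (4.248 to 5.469) and 6.07% (5.835 to 6.307) with 3 to 5. Intervals were apart in each of these classes of CpG number. With 6 or more CpGs the TKO shares were 11.1% (9.10 to 13.5) and 9.59% (9.22 to 9.98), intervals that overlap. The part of any of these properties in the difference between deserts and genes was not tested.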

How the data were processed

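Of the 12 libraries, the 8 on SssI and TKO DNA enter the lists used here. The authors aligned reads to mm10 with BWA 0.7.17, combined duplicates and called peaks with MACS2 2.2.7.1 at default parameters (q-value under 0.05) against MBP. Each deposited list gives positions and a score in whole numbers, which is the −log10 q-value times 10 with decimals dropped. Peak numbers run to 179666 (SssI) and 15110 (TKO), beyond the 175775 and 14694 peaks listed. The methods give a depth for affinity-seq libraries in general, and the lists hold no counts per library.

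From these lists, midpoints were placed on GENCODE M21 and tracts were read from GRCm38 with Python 3.11.15, numpy 2.4.6, pandas 2.3.3 and scipy 1.17.1. Overlap meant 1 bp or more, ties in score were broken by width, and region lengths left out unknown bases. The counting steps were tested on simulated data. With 1 list for each DNA there were no tests. Wilson and Poisson intervals (95%) cover counting error only.

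The deserts named are the 5 longest and, of 1 Mb or more, the 3 densest and 3 sparsest in SssI peaks. The peaks named are, in each list, the 3 strongest, the widest, the most remote and that with the longest tract. Flanking genes are named for place only. One of these deserts and the peak with the longest tract are not reported here. The members and these rules were chosen with earlier results of these data known. Alternatives covered the distance, the genes that define a desert, the q-value, the overlap, the tract length and the sequence counted.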

Additional observations from a re-analysis of the deposited data

How the results depend on the processing

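Both density ratios stayed below 1 in all 12 settings for each, the reported setting included. Not every share kept its order between deserts and genes. At 500 kb from any gene the SssI tract share was 97.5% in deserts, below the 98.4% inside genes. TKO desert peaks were shared slightly more often than gene peaks as reported. They were shared less often in deserts from 250 kb (99.43% against 99.46%) and at a q-value under 1e-05 (99.1% against 99.3%). The same held with the shortened SssI list (below). Of 94 recomputed values, 53 moved by less than their counting interval or by less than 1.5 times for counts. Deserts from 250 kb held 22458 SssI and 1410 TKO peaks, with density ratios of 0.760 and 0.541, and 21.6% and 2.845% of tracts under a peak. Deserts from 1 Mb held 2979 and 145 peaks, with ratios of 0.628 and 0.347 and 16.6% and 1.59% of tracts under a peak. There 4.87% of SssI peaks were shared, and 100.0% of TKO peaks were shared and held a tract. At 500 kb from a GENCODE gene of any class, 0.603 Mb, 40 and 2 peaks were left, with ratios of 0.897 and 0.509, shared shares of 5.00% and 100.0%, tract shares of 97.5% and 100.0%, and 21.8% and 1.38% of tracts under a peak. A q-value under 1e-05 gave a shared share of 6.46%, a tract share of 99.5% (SssI), and 16.8% and 2.215% of tracts under a peak. Counting unknown bases as sequence gave ratios of 0.5465 and 0.363. Genes without their exons gave 0.641 for the SssI list. Tracts from 10, 16 and 24 bp were in 99.6%, 98.5% and 93.9% of SssI desert peaks, and those from 24 bp in 94.3% of TKO desert peaks, with 38.4% and 3.965% of such tracts under a peak. An overlap of at least 50% of the peak gave 4.93% shared SssI peaks. With the SssI list shortened to the number of TKO peaks, 69.2% of its desert peaks and 72.2% of TKO desert peaks were shared, against 76.7% and 76.9% inside genes. Leaving out the 3 deserts with immunoglobulin or T cell receptor segments, chosen after seeing the data, gave ratios of 0.691 and 0.460. No paired analysis was possible because the peak lists used here pool their numbered libraries, and for the same reason no library was left out. Signal of single libraries was not used here. Scores rank peaks within a list only, and the lists hold no read counts behind them.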
